A study of Mus musculus with 8 samples.

Results

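The 10 genes described here encode the core and accessory subunits of Polycomb repressive complex 2 (PRC2): Ezh1, Ezh2, Eed, Suz12, Rbbp4, Rbbp7, Jarid2, Aebp2, Mtf2 and Phf19. They were chosen by gene symbol among the 50908 genes of the deposited expression table, and the set was proposed with earlier results of these data known. Each symbol had a row on a main chromosome. RNA was sequenced from E14 mouse ESCs, an established embryonic stem cell line, grown in N2B27 medium with LIF and 2i (inhibitors of MEK and GSK3). ESC + F/H-BAZ2Ar_WT carried a Flag- and HA-tagged wild-type BAZ2A and ESC + F/H-BAZ2Ar_ΔTAM a tagged BAZ2A without its RNA-binding TAM domain. Both transgenes were siRNA-resistant and inserted with the PiggyBac transposase, both lines were transfected with siRNA-Baz2a against the endogenous transcript, and both were collected 3 days later, in 4 libraries of each line. The lines were derived by isolating single-cell clones, and how many clones stand behind the libraries is not given in the sources used here, so the TAM deletion and a difference between clones cannot be told apart. The comparison asked whether the mRNA levels of the PRC2 machinery differed between the lines.

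PRC2 is the enzyme complex that methylates lysine 27 of histone H3, and its trimethylated product H3K27me3 marks silent developmental genes. EZH2 or its paralog EZH1 supplies the catalytic SET domain, EED reads H3K27me3 and stimulates the enzyme, SUZ12 is the scaffold, and RBBP4 or RBBP7 are histone-binding WD-repeat proteins that also serve other chromatin complexes such as NuRD. Accessory subunits divide the complex into alternative forms. PRC2.1 holds a Polycomb-like protein (PHF1, MTF2 or PHF19), which binds CpG-rich DNA, together with EPOP or a LCOR-family protein, and PRC2.2 holds JARID2 and AEBP2, which engage ubiquitylated H2A. In mouse ESCs PRC2 keeps lineage genes at bivalent promoters low, and self-renewal does not require it.

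The promoters of the catalytic paralogs and of the histone-binding paralogs are shown because each pair shares a place in the complex, while Rbbp4 and Rbbp7 moved in opposite directions between the lines. Each sequence runs from 250 bases before to 50 bases after the most upstream start listed in RefSeq (build GRCm38.p6), 5′ to 3′ on the gene's strand, and all 10 genes had an entry. The strings searched on both strands were the E2F site (TTTGGCGC or TTTCGCGC), the GC box (GGGCGG), the CCAAT box, the E-box (CACGTG), the ETS site (CCGGAAG), the CRE (TGACGTCA) and the TATA box (TATAAA). Capitals mark a match. None of the 7 is contained in another, and no matches of different strings overlapped in these promoters. The Ezh1 promoter is chr11:101226414-101226713 on the minus strand, the Ezh2 promoter chr6:47594981-47595280 on the minus strand, the Rbbp4 promoter chr4:129335321-129335620 on the minus strand and the Rbbp7 promoter chrX:162760122-162760421 on the plus strand.
Ezh1: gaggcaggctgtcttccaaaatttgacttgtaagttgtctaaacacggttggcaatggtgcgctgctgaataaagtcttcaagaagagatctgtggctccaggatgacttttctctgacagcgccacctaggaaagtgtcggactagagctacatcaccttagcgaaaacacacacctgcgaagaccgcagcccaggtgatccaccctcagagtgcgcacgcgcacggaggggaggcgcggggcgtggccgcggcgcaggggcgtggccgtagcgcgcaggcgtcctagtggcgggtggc
Ezh2: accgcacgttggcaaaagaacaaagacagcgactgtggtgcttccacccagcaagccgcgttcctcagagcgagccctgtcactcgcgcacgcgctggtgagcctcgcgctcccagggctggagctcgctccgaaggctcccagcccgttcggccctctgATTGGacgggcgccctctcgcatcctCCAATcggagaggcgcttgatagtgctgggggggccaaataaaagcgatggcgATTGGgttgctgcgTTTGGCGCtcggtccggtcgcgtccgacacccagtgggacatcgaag
Rbbp4: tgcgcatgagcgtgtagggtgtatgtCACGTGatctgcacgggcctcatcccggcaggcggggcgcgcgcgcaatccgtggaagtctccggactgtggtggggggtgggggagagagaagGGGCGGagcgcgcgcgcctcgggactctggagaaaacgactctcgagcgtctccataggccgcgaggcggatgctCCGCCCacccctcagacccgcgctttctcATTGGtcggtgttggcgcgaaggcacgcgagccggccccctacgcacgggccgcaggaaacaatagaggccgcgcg
Rbbp7: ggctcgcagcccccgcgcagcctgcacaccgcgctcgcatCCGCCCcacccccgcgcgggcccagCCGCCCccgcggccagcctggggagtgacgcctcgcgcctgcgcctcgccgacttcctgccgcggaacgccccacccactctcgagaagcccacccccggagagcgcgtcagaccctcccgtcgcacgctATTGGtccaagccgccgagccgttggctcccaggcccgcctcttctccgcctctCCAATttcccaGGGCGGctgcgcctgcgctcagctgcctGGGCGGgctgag

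The Ezh2 promoter held 1 E2F match, a string found in 0.813% of the 32851 RefSeq promoters of the same length, and 3 CCAAT matches, found in 37.4% of them. None of the 7 strings was in the Ezh1 promoter. The Rbbp4 promoter held 1 E-box (in 7.15% of all promoters), 2 GC boxes (in 35.7%) and 1 CCAAT box, and the Rbbp7 promoter held 4 GC boxes and 2 CCAAT boxes. All 4 were rich in CpG, with 23 CpG in Ezh1, 31 in Ezh2, 39 in Rbbp4 and 38 in Rbbp7, against a median of 7 over all promoters.

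Between 6580852 and 8690075 reads per library were counted on genes. RPM below are reads scaled to the library total, the deposited RPKM without its division by gene length, and 1 read was worth 0.0172 to 0.0228 RPM. Differences between the lines are log2 fold changes of ESC + F/H-BAZ2Ar_ΔTAM over ESC + F/H-BAZ2Ar_WT on the log2(RPM + 0.1) scale from limma, with p-values adjusted by Benjamini-Hochberg over the 12632 genes tested and called at an adjusted p under 0.05. The labels do not say that the libraries came from separate cultures, so p-values measure the spread between these libraries, which may be technical. All 8 ESC markers examined were present, with a summed level of 1086 to 1098 RPM in ESC + F/H-BAZ2Ar_WT and 949 to 1011 RPM in ESC + F/H-BAZ2Ar_ΔTAM, where 4 of 8 (Sox2, Klf4, Esrrb and Dppa5a) were lower and 0 higher. All 5 markers of 2-cell-like cells were higher, their sum rising from 0.644 to 1.01 RPM to 4.37 to 5.23 RPM. Of 4 primed markers, Dnmt3b alone passed the filter and was higher (log2 fold change 0.71), Otx2 had 6 to 11 reads per library in ESC + F/H-BAZ2Ar_WT and 1 to 3 in ESC + F/H-BAZ2Ar_ΔTAM, Pou3f1 overlapped between the lines and Fgf5 was at 0. The sum of 3 neuroectoderm markers was 4.31 to 5.502 RPM in ESC + F/H-BAZ2Ar_WT and 2.28 to 2.63 RPM in ESC + F/H-BAZ2Ar_ΔTAM, with 2 of the 3 lower, and the 5 fibroblast markers had at most 10 reads in any library, with Dcn and Lum at 0. The summed trophectoderm markers (2.83 to 3.22 against 2.50 to 3.92 RPM) overlapped between the lines with 2 of 5 tested, 1 higher and 1 lower. Those of primitive endoderm did not overlap, at 0.911 to 1.07 against 1.13 to 1.35 RPM, and the only 1 of the 5 that was tested, Gata4, had a log2 fold change of 0.36 (adjusted p = 0.0550). The part of these shifts in the results below was not tested.

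Baz2a, the targeted gene, had 396 ± 20.0 RPM (SD, n = 4) in ESC + F/H-BAZ2Ar_WT and 689 ± 31.1 RPM (SD, n = 4) in ESC + F/H-BAZ2Ar_ΔTAM. Its log2 fold change was 0.80 ± 0.037 (SE, adjusted p = 1.75e-13), and the 4 libraries of each line did not overlap. These reads come from transgene and endogenous transcripts together, so the value checks neither the knockdown nor the deletion. The paper reports similar amounts of BAZ2A in both lines by Western blot. The TAM deletion and the difference in Baz2a RNA level cannot be told apart in the results below.

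All 10 PRC2 genes passed the filter of a mean of 0.2 RPM, Phf19 closely. Of these, 7 were called, 2 higher (Rbbp4 and Aebp2) and 5 lower (Ezh1, Ezh2, Eed, Rbbp7 and Jarid2) in ESC + F/H-BAZ2Ar_ΔTAM. Of all genes tested, 43.6% were called, 21.6% higher and 21.9% lower. The libraries of the lines did not overlap for the same 7 genes, as for 37.8% of all genes. None of the 10 reached an absolute log2 fold change of 0.58 with an unadjusted p under 0.05, a mark that 9.58% of all genes passed. The fold changes ran from -0.23 to 0.31 with a median of -0.063, against a median of -0.0041 over all genes, and the median absolute log2 fold change was 0.21 for the 10 genes and 0.18 for all genes. In these bulk samples, fewer cells expressing a gene and less RNA per cell cannot be told apart.

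**Figure D1:**
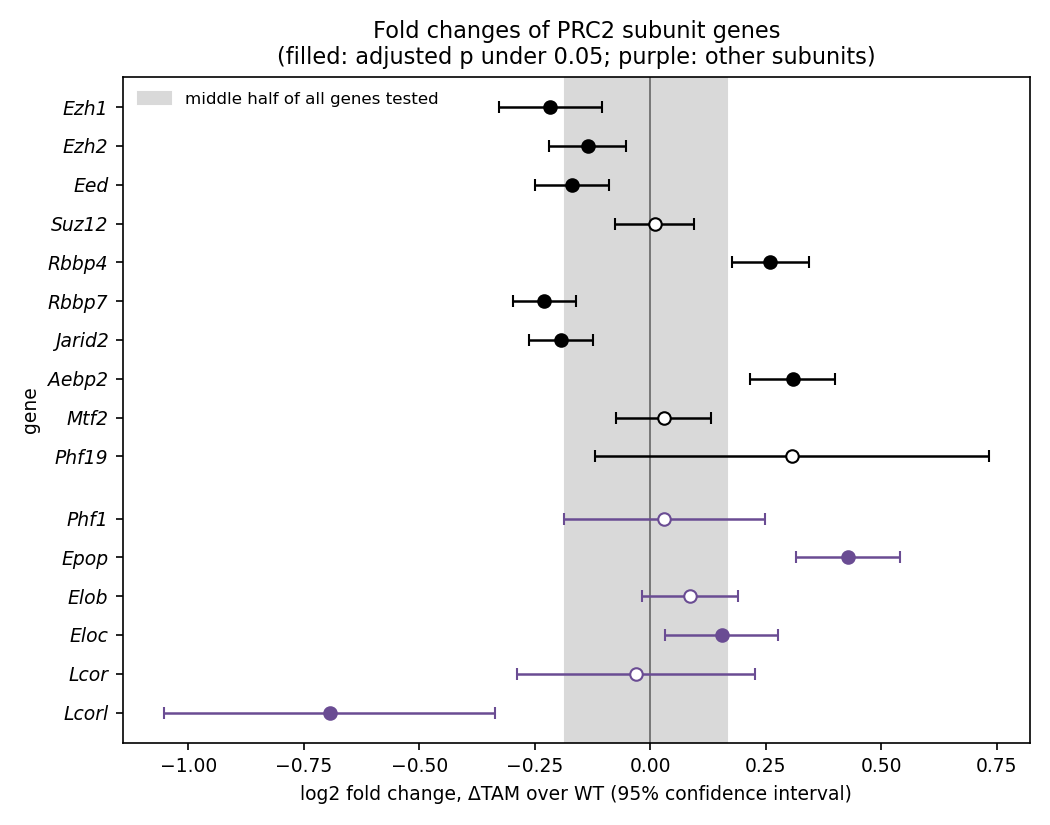
Log2 fold change of ESC + F/H-BAZ2Ar_ΔTAM over ESC + F/H-BAZ2Ar_WT (horizontal axis) for the 10 PRC2 genes (black) and 6 other subunit genes (purple), with 95% confidence intervals from limma. Filled points have an adjusted p under 0.05, and the grey band is the interquartile range of all genes tested (-0.18 to 0.17). Of the called PRC2 genes, Rbbp4 (0.26) and Aebp2 (0.31) lie right of the band and Rbbp7 (-0.23), Ezh1 (-0.22) and Jarid2 (-0.19) left of it.

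Both catalytic genes were slightly lower in ESC + F/H-BAZ2Ar_ΔTAM. Ezh2, on chromosome 6 from 47530139 to 47595341 of mm10 (minus strand), is the main H3K27 methyltransferase gene of dividing cells. It was measured at 26.8, 25.9, 26.1 and 27.6 RPM in the ESC + F/H-BAZ2Ar_WT libraries (replicates 1 to 4) and at 23.2, 23.8, 24.8 and 25.1 RPM in the ESC + F/H-BAZ2Ar_ΔTAM libraries. The highest ESC + F/H-BAZ2Ar_ΔTAM library lay below the lowest ESC + F/H-BAZ2Ar_WT library. The mean fell from 26.6 ± 0.771 to 24.2 ± 0.870 RPM (SD, n = 4 each), which on the log2 scale was -0.14 ± 0.040 (SE, adjusted p = 0.00942). Each library held between 1041 and 1455 reads on Ezh2.

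Ezh1, the paralog with weaker methyltransferase activity that is known mainly from non-dividing cells, lies on chromosome 11 from 101191115 to 101226463 (minus strand). Its libraries had 11.28, 11.51, 11.03 and 10.99 RPM in ESC + F/H-BAZ2Ar_WT and 10.6, 9.45, 9.27 and 9.28 RPM in ESC + F/H-BAZ2Ar_ΔTAM. The groups did not overlap, and ESC + F/H-BAZ2Ar_ΔTAM replicate 1 stood above the other 3 of its line. The log2 fold change was -0.22 ± 0.054 (SE, adjusted p = 0.00234), and without that replicate it was -0.26 (adjusted p = 3.27e-04).

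Of the core partners, Eed was lower and Suz12 was not called. Eed (chromosome 7, 89954654 to 89980983, minus strand), whose product binds H3K27me3 through an aromatic cage, was measured at 31.2, 29.3, 30.9 and 31.4 RPM in ESC + F/H-BAZ2Ar_WT and at 26.2, 27.4, 27.8 and 27.7 RPM in ESC + F/H-BAZ2Ar_ΔTAM. Every ESC + F/H-BAZ2Ar_ΔTAM library lay below every ESC + F/H-BAZ2Ar_WT library. The log2 fold change was -0.17 ± 0.039 (SE, adjusted p = 0.00120). Suz12, the scaffold gene on chromosome 11 from 79993106 to 80034123 (plus strand), had 63.9, 62.2, 61.5 and 69.5 RPM in ESC + F/H-BAZ2Ar_WT and 68.2, 60.5, 64.6 and 65.3 RPM in ESC + F/H-BAZ2Ar_ΔTAM. The groups overlapped, with the highest value in ESC + F/H-BAZ2Ar_WT replicate 4 and the lowest in ESC + F/H-BAZ2Ar_ΔTAM replicate 2. Its log2 fold change was 0.0091, with a 95% confidence interval from -0.077 to 0.095 (adjusted p = 0.879). It turned to -0.0062 and -0.012 without replicate 2 or 3 of ESC + F/H-BAZ2Ar_WT and to -0.017 without replicate 1 of ESC + F/H-BAZ2Ar_ΔTAM. At between 2649 and 3794 reads per library, this interval excluded changes of the size measured for Eed.

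The histone-binding paralogs moved in opposite directions. Rbbp4 (chromosome 4, 129307100 to 129335370, minus strand) was measured at 69.9, 72.4, 73.6 and 70.8 RPM in ESC + F/H-BAZ2Ar_WT and at 78.4, 90.9, 89.6 and 85.0 RPM in ESC + F/H-BAZ2Ar_ΔTAM. Every ESC + F/H-BAZ2Ar_ΔTAM library was higher than every ESC + F/H-BAZ2Ar_WT library, with replicate 1 the lowest of its line. The log2 fold change was 0.26 ± 0.040 (SE, adjusted p = 1.62e-05). Rbbp7 (chromosome X, 162760402 to 162779092, plus strand) had 53.1, 51.4, 51.1 and 51.3 RPM in ESC + F/H-BAZ2Ar_WT and 44.1, 44.6, 43.6 and 44.1 RPM in ESC + F/H-BAZ2Ar_ΔTAM. The groups were far apart relative to their spread (SD of 0.928 and 0.393 RPM, n = 4 each), and the log2 fold change was -0.23 ± 0.033 (SE, adjusted p = 6.71e-06).

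Levels of different genes were compared as TPM, from reads divided by exon length in the GENCODE vM21 basic set. Rbbp4 made up 41.2%, 42.9%, 43.4% and 42.3% of the summed Rbbp4 and Rbbp7 TPM in ESC + F/H-BAZ2Ar_WT and 48.6%, 52.1%, 52.2% and 50.6% in ESC + F/H-BAZ2Ar_ΔTAM. The shares did not overlap between the lines, with means of 42.5% ± 0.942 and 50.9% ± 1.67 (SD, n = 4 each). The summed level of the pair was 642 ± 5.45 TPM in ESC + F/H-BAZ2Ar_WT and 644 ± 13.5 TPM in ESC + F/H-BAZ2Ar_ΔTAM and overlapped between the lines. With the longer exons of the comprehensive set the share went from 31.6% ± 0.831 to 39.3% ± 1.59. The summed level went from 609 ± 6.06 to 587 ± 9.06 TPM with no overlap, so the equal sums did not hold under both exon sets. A gene's exon length is the same in all libraries, so the order of the libraries by share could not change with the set. Part of Rbbp4's exon sequence overlaps genes on the opposite strand (Gm26722 over 9.10% and Sync over 8.94% of its exon bases), and Txlng overlaps 5.98% of Rbbp7's and Tmed5 6.93% of Mtf2's. Strand use in the counting is not given in the sources used here, and Sync had at most 39 and Gm26722 at most 9 reads in a library against at least 3476 for Rbbp4. Txlng had 286 to 447 reads against 1953 to 2649 for Rbbp7, and Tmed5 175 to 273 against 2920 to 4337 for Mtf2. A processed pseudogene of Rbbp7 on chromosome X, Gm6382, is 97.1% identical over 942 aligned bases and was listed with 0 to 3 reads. Opposite-strand genes also overlap between 2.61% and 6.82% of the exon bases of Ezh2, Suz12 and Eed.

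**Figure D2:**
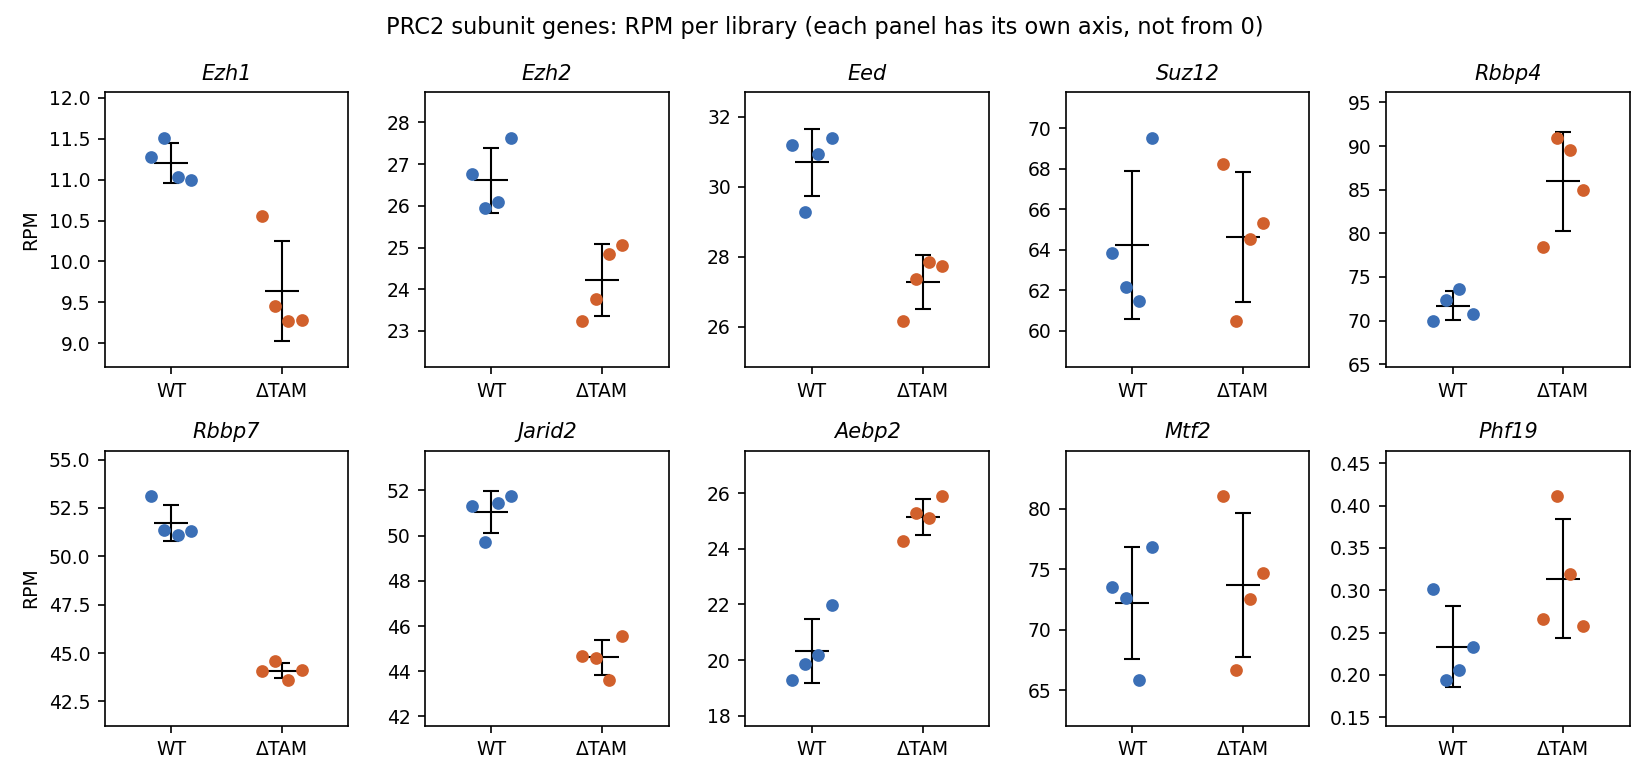
RPM of each PRC2 gene in the 4 libraries of ESC + F/H-BAZ2Ar_WT (blue) and the 4 of ESC + F/H-BAZ2Ar_ΔTAM (orange), replicates 1 to 4 from left to right, with mean and SD in black. Each panel has its own vertical axis that does not start at 0. The lines are separate for all but Suz12, Mtf2 and Phf19, and Rbbp4 (69.9 to 73.6 against 78.4 to 90.9 RPM) and Rbbp7 (51.1 to 53.1 against 43.6 to 44.6 RPM) go opposite ways.

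The PRC2.2 subunits also moved in opposite directions. Aebp2, which encodes a zinc finger protein and lies on chromosome 6 from 140622663 to 140678472 (plus strand), had 19.3, 19.9, 20.2 and 21.96 RPM in ESC + F/H-BAZ2Ar_WT and 24.3, 25.3, 25.1 and 25.9 RPM in ESC + F/H-BAZ2Ar_ΔTAM. All ESC + F/H-BAZ2Ar_ΔTAM libraries were above all ESC + F/H-BAZ2Ar_WT libraries. The log2 fold change was 0.31 ± 0.044 (SE, adjusted p = 6.69e-06). Jarid2, which encodes a Jumonji-family protein without demethylase activity, lies on chromosome 13 from 44729474 to 44921643 (plus strand). It had 51.3, 49.7, 51.4 and 51.7 RPM in ESC + F/H-BAZ2Ar_WT and 44.7, 44.6, 43.6 and 45.5 RPM in ESC + F/H-BAZ2Ar_ΔTAM. The groups did not overlap, and the log2 fold change was -0.19 ± 0.033 (SE, adjusted p = 6.39e-05). The share of Aebp2 in the summed Aebp2 and Jarid2 TPM was between 22.1% and 24.3% in the libraries of ESC + F/H-BAZ2Ar_WT and between 29.1% and 30.3% in those of ESC + F/H-BAZ2Ar_ΔTAM. It rose from 23.1% ± 0.895 to 29.8% ± 0.522 (SD, n = 4 each) without overlap, and from 28.2% ± 1.02 to 35.7% ± 0.574 with the comprehensive exons. The summed TPM of the pair was 181 ± 6.52 and 174 ± 3.80, and the lines overlapped.

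By contrast, the share of Ezh1 in the summed Ezh1 and Ezh2 TPM overlapped between the lines, at 16.3% ± 0.611 and 15.5% ± 1.27 (SD, n = 4 each), with the highest value, 17.3%, in ESC + F/H-BAZ2Ar_ΔTAM replicate 1. With the comprehensive exons the share was 27.4% ± 0.894 and 26.3% ± 1.86, where the overlap follows from the same reads. The summed TPM of the catalytic pair did not overlap, at 190.0 ± 6.79 against 172 ± 4.12. These shares were compared by overlap only and were not tested.

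**Figure D3:**
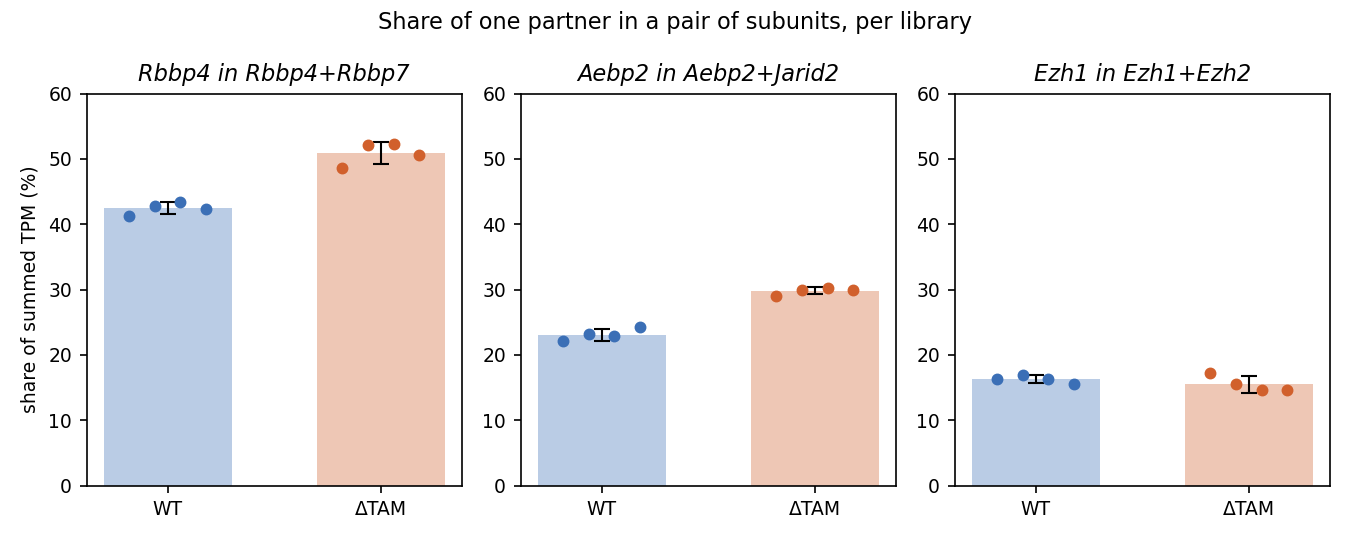
Share (percent) of 1 gene in the summed TPM of a pair of PRC2 genes, per library, for ESC + F/H-BAZ2Ar_WT (blue) and ESC + F/H-BAZ2Ar_ΔTAM (orange); bars are means and error bars SD (n = 4). The shares of Rbbp4 (42.5% against 50.9%) and Aebp2 (23.1% against 29.8%) are separate between the lines and that of Ezh1 (16.3% against 15.5%) is not.

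The Polycomb-like genes of PRC2.1 were not called. Mtf2, the main Polycomb-like gene of ESCs, lies on chromosome 5 from 108065674 to 108109004 (plus strand) and had 73.5, 72.6, 65.9 and 76.9 RPM in ESC + F/H-BAZ2Ar_WT and 81.0, 66.7, 72.6 and 74.7 RPM in ESC + F/H-BAZ2Ar_ΔTAM. The groups overlapped widely, and the log2 fold change was 0.028 with a 95% confidence interval from -0.073 to 0.13 (adjusted p = 0.672). It turned to -0.015 without replicate 3 of ESC + F/H-BAZ2Ar_WT and to -0.018 without replicate 1 of ESC + F/H-BAZ2Ar_ΔTAM. The coefficient of variation of Mtf2 was 6.38% and 8.03% in the lines, against 1.66% and 1.65% from counting alone. Mtf2 and Suz12 were highest in the same libraries, replicate 4 of ESC + F/H-BAZ2Ar_WT and replicate 1 of ESC + F/H-BAZ2Ar_ΔTAM, and lowest in replicate 3 of ESC + F/H-BAZ2Ar_WT and replicate 2 of ESC + F/H-BAZ2Ar_ΔTAM. This was not particular to subunit genes. Nsd1, described below, was highest (66.45 and 74 RPM) and lowest (61.6 and 66.6 RPM) in the same libraries. The likeness was not tested. Phf19 (chromosome 2, 34893757 to 34914026, minus strand) had 0.302, 0.194, 0.205 and 0.233 RPM in ESC + F/H-BAZ2Ar_WT and 0.266, 0.411, 0.319 and 0.258 RPM in ESC + F/H-BAZ2Ar_ΔTAM. These are 10 to 18 reads per library, the groups overlapped, and the 95% confidence interval of the log2 fold change of 0.31 ran from -0.12 to 0.73 (adjusted p = 0.242). The fold change was 0.090 with a pseudocount of 1 RPM and 0.20 without ESC + F/H-BAZ2Ar_ΔTAM replicate 2, not called in either. A change of the size measured for the other PRC2 genes described above was not detectable for Phf19 at this depth.

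In order of TPM, ESC + F/H-BAZ2Ar_WT had Rbbp7 (369 ± 7.76), Mtf2 (298 ± 21.96), Rbbp4 (273 ± 5.62), Eed (249 ± 10.4), Suz12 (246 ± 17.5), Ezh2 (159 ± 6.78), Jarid2 (139 ± 4.02), Aebp2 (41.7 ± 2.92), Ezh1 (30.9 ± 0.493) and Phf19 (1.05 ± 0.218; SD, n = 4 each). Of these neighbours, Mtf2 and Rbbp4 overlapped, as did Eed and Suz12. In ESC + F/H-BAZ2Ar_ΔTAM, Rbbp4 (328 ± 17.3), Rbbp7 (316 ± 4.73) and Mtf2 (305 ± 28.6) overlapped at the top, Suz12 (249 ± 15.5) was above Eed (222 ± 4.42) in every library, and the order from Ezh2 (145 ± 4.76) down to Phf19 (1.41 ± 0.300) was as in ESC + F/H-BAZ2Ar_WT. Averaged over all libraries, the levels of Ezh2, Eed, Suz12, Rbbp4, Mtf2 and Rbbp7 exceeded those of at least 90.9% of the genes tested, that of Ezh1 exceeded 54.9% and that of Phf19 2.81%. The order depended on exon length: with the comprehensive exons Rbbp7 was highest in both lines (417 and 356 TPM) and Jarid2 (123 and 108 TPM) was above Ezh2 (93.5 and 85.2 TPM). Suz12 (305 and 307 TPM) came after Rbbp7 by mean but overlapped Mtf2 in both lines. All 10 genes together summed to 1807 ± 62.4 TPM in ESC + F/H-BAZ2Ar_WT and 1766 ± 34.7 TPM in ESC + F/H-BAZ2Ar_ΔTAM, which overlapped.

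**Figure D4:**
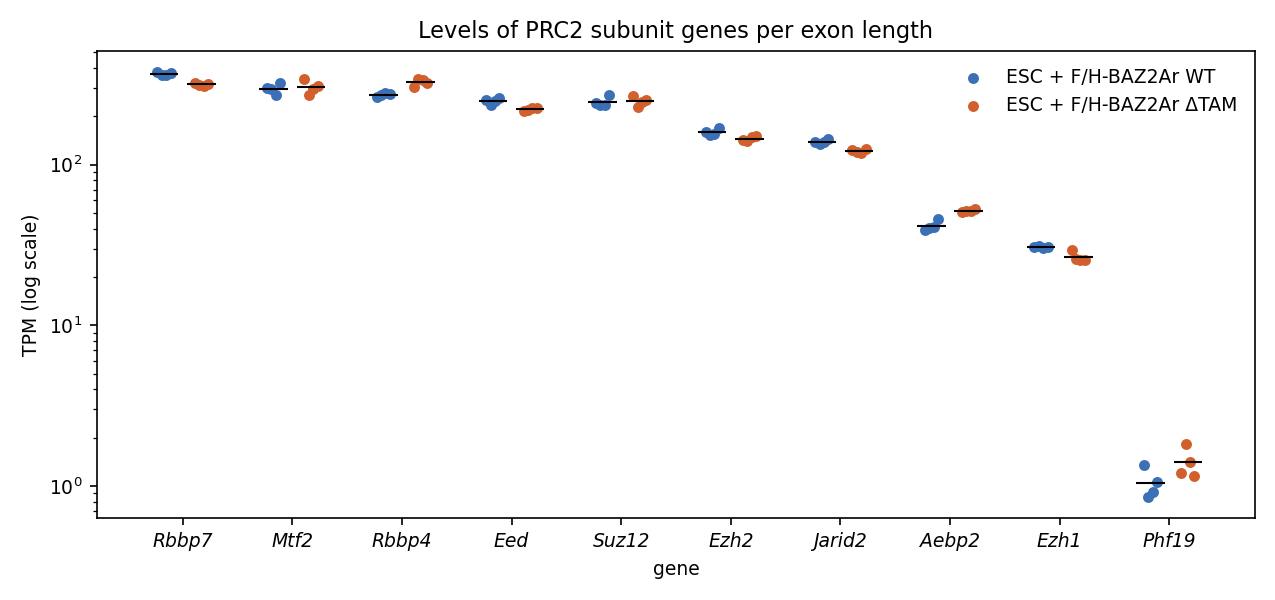
TPM (log axis) of the 10 PRC2 genes in each library of ESC + F/H-BAZ2Ar_WT (blue) and ESC + F/H-BAZ2Ar_ΔTAM (orange), in order of the ESC + F/H-BAZ2Ar_WT mean; black lines are means. The levels run from 369 TPM for Rbbp7 to 1.05 TPM for Phf19 in ESC + F/H-BAZ2Ar_WT.

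Among 6 other subunit genes tested, 2 were higher, 1 was lower and 3 were not called, where 43.6% of all genes tested were called. Epop, an ESC-enriched PRC2.1 subunit that links to Elongin BC, had 21.7, 22.2, 22.8 and 19.2 RPM in ESC + F/H-BAZ2Ar_WT and 27.1, 31.2, 30.3 and 27.03 RPM in ESC + F/H-BAZ2Ar_ΔTAM. The groups did not overlap, and its log2 fold change of 0.43 ± 0.055 (SE, adjusted p = 1.42e-06) was the largest rise among the subunit genes. Eloc, which encodes Elongin C, rose from 9.43 ± 0.709 to 10.5 ± 0.441 RPM (SD, n = 4 each), or by 0.15 on the log2 scale (adjusted p = 0.0372), a call that was lost without replicate 1 or 4 of ESC + F/H-BAZ2Ar_WT or replicate 2 or 3 of ESC + F/H-BAZ2Ar_ΔTAM (log2 fold change 0.099, adjusted p = 0.152 without replicate 4 of ESC + F/H-BAZ2Ar_WT) and under 4 of 12 other settings. Lcorl, whose PALI2 product joins PRC2.1, had 2.96, 2.35, 3.10 and 3.90 RPM in ESC + F/H-BAZ2Ar_WT and 2.61, 1.16, 1.63 and 2.26 RPM in ESC + F/H-BAZ2Ar_ΔTAM. Its groups overlapped although the log2 fold change of -0.69 was called (adjusted p = 0.00249), and the call was lost without the mean-variance trend (adjusted p = 0.0544) and with robust variance estimates (adjusted p = 0.0855). Elongin B (Elob, 0.086, adjusted p = 0.180, and 0.030 without ESC + F/H-BAZ2Ar_WT replicate 4), Phf1 (0.030, adjusted p = 0.839) and Lcor (-0.031, adjusted p = 0.862) were not called. Ezhip was not analysed here.

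Of 7 genes for enzymes that remove H3K27 methylation or write the opposing H3K36 methylation, 2 were called, both higher, against 43.6% called over all genes tested. Another 2, named after their values were seen, had an unadjusted p under 0.05 with negative fold changes that missed the threshold, the Kdm6a homolog Uty (-0.24, adjusted p = 0.0506) and the demethylase gene Kdm6b (-0.13, adjusted p = 0.0609). Both were called as lower with the replicate number as a block (0.0248 and 0.0359) and without ESC + F/H-BAZ2Ar_ΔTAM replicate 1 (0.0339 and 0.0437), Uty also with robust moderation (0.0392) and without ESC + F/H-BAZ2Ar_WT replicate 2 (0.00887), and Kdm6b also with quantile scaling (0.0405) and without ESC + F/H-BAZ2Ar_WT replicate 4 (0.00929). The H3K27 demethylase gene Kdm6a (UTX) rose from 10.3 ± 0.374 to 11.6 ± 0.457 RPM (SD, n = 4 each), or by 0.16 on the log2 scale (adjusted p = 0.0124). Nsd1, an H3K36 dimethyltransferase, rose from 64.1 ± 2.02 to 70.9 ± 3.11 RPM, or by 0.14 on the log2 scale (adjusted p = 0.00300). In both, every ESC + F/H-BAZ2Ar_ΔTAM library was above every ESC + F/H-BAZ2Ar_WT library. The call of Kdm6a was lost without ESC + F/H-BAZ2Ar_ΔTAM replicate 3 (adjusted p = 0.0511).

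Of 6 tested genes of the H2AK119 deubiquitinase and linked factors, 3 were higher and 1 was lower, against 43.6% called over all genes tested. Asxl1 and Asxl2, which encode partners of the deubiquitinase BAP1, had log2 fold changes of 0.13 (adjusted p = 0.0209) and 0.15 (adjusted p = 0.0363), and Hcfc1, named as the remaining call after its value was seen, 0.12 (adjusted p = 0.00325). Atrx, a chromatin remodeller gene, had 48.0, 43.6, 44.4 and 61.6 RPM in ESC + F/H-BAZ2Ar_WT and 53.8, 30.3, 31.3 and 44.2 RPM in ESC + F/H-BAZ2Ar_ΔTAM. The groups overlapped, and like Suz12, Mtf2 and Nsd1 it was highest in replicate 4 of the one line and replicate 1 of the other. Its log2 fold change was -0.34 (adjusted p = 0.0327). The calls of Atrx and Asxl2 were lost under 4 of 12 other settings each, and that of Asxl1 under 3. Leaving out single libraries ended the call of Atrx for replicates 1 and 4 of ESC + F/H-BAZ2Ar_WT and replicates 2 and 3 of ESC + F/H-BAZ2Ar_ΔTAM (-0.22 without ESC + F/H-BAZ2Ar_ΔTAM replicate 2, -0.23 without ESC + F/H-BAZ2Ar_WT replicate 4, adjusted p up to 0.151), that of Asxl1 for replicate 1 of the former and replicate 4 of the latter (0.084 without the first of these, adjusted p up to 0.117), and that of Asxl2 for replicates 1, 2 and 3 of the former and 1 and 4 of the latter (adjusted p up to 0.159).

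Of 21 genes known as PRC2 targets in ESCs, 9 passed the filter and the others had at most 10 reads in any library. Of the 9, 2 were higher and 3 lower, and 3 passed the fold mark of 0.58. Over all genes tested, 43.6% were called and 9.58% passed the fold mark. Hoxd13, a distal Hox gene, rose from 16 to 17 reads per library to 27 to 40 (log2 fold change 0.82, adjusted p = 0.00108). Gata2, a haematopoietic transcription factor gene, fell from 21 to 25 reads to 6 to 10 (log2 fold change -1.03, adjusted p = 2.58e-04), and Sox1, a neural one, from 19 to 25 reads to 9 to 15 (log2 fold change -0.75, adjusted p = 0.00244). For Hoxd13, Gata2 and Sox1 the groups did not overlap. With a pseudocount of 1 RPM their log2 fold changes were 0.32, -0.31 and -0.24, all called and none past the fold mark. Cdx2, a trophectoderm transcription factor gene, had 1.85, 1.77, 1.64 and 1.47 RPM in ESC + F/H-BAZ2Ar_WT and 1.50, 2.33, 2.59 and 2.41 RPM in ESC + F/H-BAZ2Ar_ΔTAM. Its groups overlapped through replicate 1 of ESC + F/H-BAZ2Ar_ΔTAM, and the log2 fold change of 0.35 (adjusted p = 0.0411) was no longer called without replicate 2, 3 or 4 of either line (adjusted p up to 0.153), nor without a filter (0.0846), with log2(RPKM + 0.1) (0.130) or without the mean-variance trend (0.116). The remaining call, named after its value was seen, was Eomes (-0.41, adjusted p = 0.0202), which was lost without replicate 2 of ESC + F/H-BAZ2Ar_WT (adjusted p = 0.0603), without replicate 4 of ESC + F/H-BAZ2Ar_ΔTAM (0.0830) and without a filter (0.0651). Its log2 fold change was -0.23 with a pseudocount of 1 RPM and -0.26 with log2(RPKM + 0.1), called in both. The neuroectoderm markers, Sox1 among them, were lower as a sum in the same libraries.

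**Figure D5:**
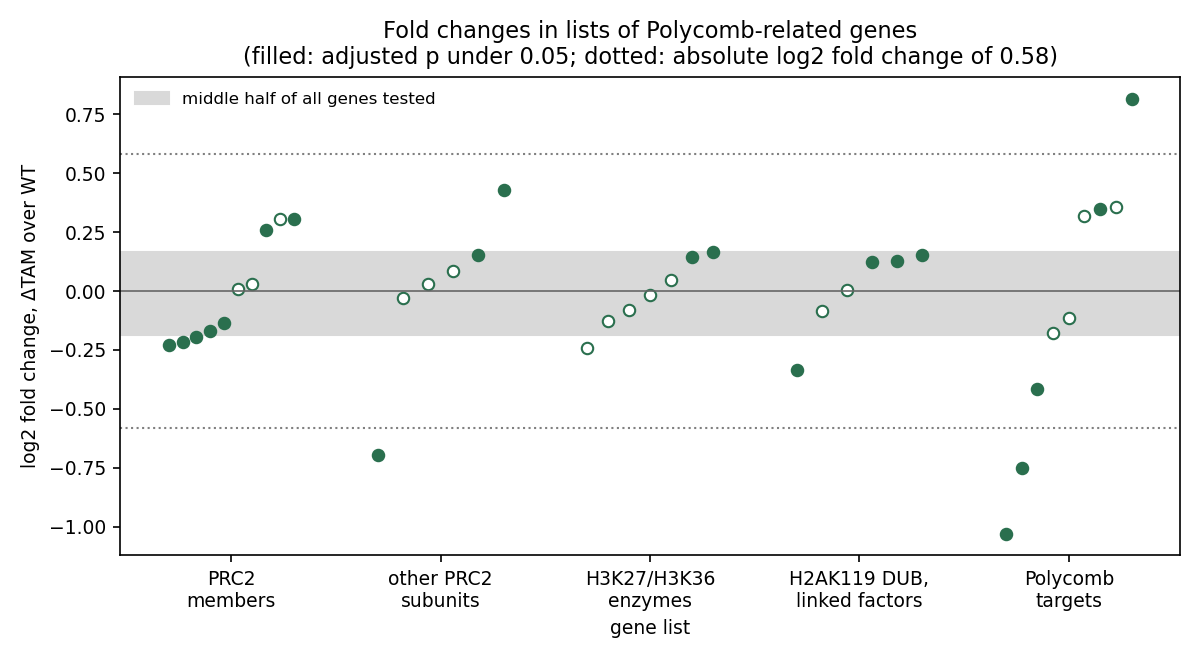
Log2 fold change of ESC + F/H-BAZ2Ar_ΔTAM over ESC + F/H-BAZ2Ar_WT (vertical axis) for each tested gene of the PRC2 members, other subunits, H3K27 or H3K36 enzymes, H2AK119 deubiquitinase (DUB) and linked factors, and PRC2 targets, sorted within each list. Filled points have an adjusted p under 0.05, the grey band is the interquartile range of all genes tested and dotted lines mark 0.58. The 10 PRC2 members lie between -0.23 and 0.31, the other subunits between -0.69 and 0.43 and the targets between -1.03 and 0.82.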

How the data were processed

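RNA-seq libraries of E14 ESCs, 4 of ESC + F/H-BAZ2Ar_WT and 4 of ESC + F/H-BAZ2Ar_ΔTAM, were grouped by their labels. The authors prepared polyA-selected stranded libraries, removed ribosomal RNA reads, trimmed with Trimmomatic (version 0.36 in the submitters' processing notes), aligned to mm10 with STAR, summed coverage over each gene's exons in a pipeline of their own, and deposited an RPKM value per gene and library. The gene annotation, strand use and treatment of multi-mapping reads are not given in the sources used here. The deposited RPKM proved to be per kilobase of genomic span: multiplied by span, 99.6% to 99.7% of values above 0 were whole multiples of 1 step per library (tolerance 0.1 read), which gave RPM and reads. Reads on genes were 14.9% to 15.0% of the library totals that these steps imply. Of 51288 entries, 380 that repeated a symbol were set aside.

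Log2(RPM + 0.1) was fitted for genes averaging 0.2 RPM or more, with limma 3.58.1 (lmFit, eBayes with trend) in R 4.3.3 without covariates. The fit uses RPM since a filter on span-based RPKM removes genes with long introns. TPM used exon lengths of GENCODE vM21, in which all 10 genes have the coordinates of the table. Genes were named by rule: all PRC2 genes, Baz2a, every other subunit, and in each further list the 2 largest increases and 2 largest decreases with an adjusted p under 0.05. The members and lists were chosen with earlier results of these data known, and 1 gene of the target list is not reported here. Alternatives were the pseudocount (0.02 or 1 RPM), the filter (none, or 1 RPM), log2(RPKM + 0.1), median-ratio and quantile scaling, eBayes without trend or robust, voom on recovered reads, a replicate block, each library left out, and all repeated entries. The comprehensive exon set was added after seeing the data. Intervals cover 95%. Python 3.11.15 and matplotlib 3.10.9 were used for summaries and figures.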

Additional observations from a re-analysis of the deposited data

Results flagged for a closer look

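Of 52 sets of 4 libraries examined (26 genes in each line), 2 held a library whose gap to its nearest neighbour took a larger part of the range than Dixon's 95% critical value, where chance gives about 1 in 20. Ezh1 was 10.55 RPM in ESC + F/H-BAZ2Ar_ΔTAM replicate 1 against 9.27 to 9.45 RPM in the other 3 libraries of the line. Rbbp7 was 53.1 RPM in ESC + F/H-BAZ2Ar_WT replicate 1 against 51.1 to 51.4 RPM in the others. Both genes were called with and without these libraries.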

How the results depend on the processing

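The 7 calls among the PRC2 genes, 2 higher and 5 lower, held under all 20 alternatives, and Phf19 was not tested under the 1 RPM and RPKM filters. The highest adjusted p was 0.0467, for Ezh2. Over all genes, 3224 of 9001 were called with log2(RPKM + 0.1) and 5227 of 25445 without a filter, against 5505 of 12632. Signs that reversed belonged to genes not called: Suz12 without ESC + F/H-BAZ2Ar_WT replicate 2 or 3 (-0.0062, -0.012) or ESC + F/H-BAZ2Ar_ΔTAM replicate 1 (-0.017), Mtf2 without ESC + F/H-BAZ2Ar_WT replicate 3 (-0.015) or ESC + F/H-BAZ2Ar_ΔTAM replicate 1 (-0.018), Phf1 without ESC + F/H-BAZ2Ar_WT replicate 2 (-0.066) or ESC + F/H-BAZ2Ar_ΔTAM replicate 1 or 4 (-0.0026, -0.015), and Lcor under quantile scaling (0.016) and without ESC + F/H-BAZ2Ar_WT replicate 1 or 3 (0.017, 0.021) or ESC + F/H-BAZ2Ar_ΔTAM replicate 4 (0.023). Over the left-out libraries the highest values were 0.048 for Suz12, 0.076 for Mtf2 and 0.087 for Phf1 and the lowest for Lcor was -0.11, while Elob ranged from 0.030 to 0.13. Calls among other subunits went from 3 to 1 with log2(RPKM + 0.1), where Lcorl fell under the RPKM filter and was not tested, and without the trend. Calls among H3K27 and H3K36 enzymes went from 2 to 1 with log2(RPKM + 0.1), where Kdm6a fell under the RPKM filter and was not tested. They went to 1 to 4 with single libraries left out (4 without ESC + F/H-BAZ2Ar_ΔTAM replicate 1, 1 without replicate 3). Calls among linked factors went from 4 to 2 without a filter and with quantile scaling, to 1 with log2(RPKM + 0.1) and without the trend, and to between 1 and 4 (1 without ESC + F/H-BAZ2Ar_WT replicate 1, 2 without ESC + F/H-BAZ2Ar_ΔTAM replicate 4) with single libraries left out. Calls among targets went from 5 to 3 without a filter and to 6 with a pseudocount of 1 RPM, with quantile scaling and with the replicate block. They went to 2 with the 1 RPM filter and with log2(RPKM + 0.1), which leave fewer of them tested, and to 3 to 5 with single libraries left out (3 without ESC + F/H-BAZ2Ar_WT replicate 2). Otherwise the cause was not tested. With the replicate number as a block, 5846 genes were called, and the H3K27 and H3K36 enzymes had 4 calls. The labels give libraries with the same number nothing else in common. Their deviations correlated at 0.037 to 0.104, against -0.125 to 0.079 for different numbers, and not every library correlated best with its own number. Whether they share a batch was not tested. Depth limits Phf19 and the targets with few reads.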
